A study of Bos taurus with 6 samples.

Results

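The hypoblast is the sheet of primitive endoderm that lines the blastocyst cavity and later forms the yolk sac. Its cells arise in the inner cell mass, where FGF signalling through ERK favours the hypoblast factor GATA6 over the epiblast factor NANOG. Fated cells then switch on further endoderm factors, sort to the surface of the inner cell mass and secrete a basement membrane of laminin and type IV collagen. The 9 hypoblast markers examined here were 5 transcription factors (GATA6, GATA4, SOX17, HNF4A and FOXA2), the receptor PDGFRA, 2 basement membrane chains (COL4A1 and LAMA1) and the lipid carrier APOE. They were taken by gene symbol from a table of 36075 bovine genes, and each symbol matched 1 row. The rule uses no measured value, but the markers were chosen with earlier results of these data known.

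RNA was measured in 6 libraries of bovine blastocysts, 3 in the control group and 3 in the MT-treated group. Melatonin (MT), an indoleamine hormone with antioxidant activity, was present at 1e-07 mol/L during the 22 h of oocyte maturation in the MT-treated group and absent in the control group, and nothing in the methods describes MT in fertilization or embryo culture. All oocytes came from slaughterhouse ovaries, and all embryos were fertilized in vitro and cultured under 5% oxygen. According to the methods, each library was a pool of 3 blastocysts and the 3 libraries of a group came from 3 in vitro production runs, with the treatments run side by side, so control and MT-treated libraries can share a run. A library therefore mixes trophectoderm, epiblast and hypoblast cells of several embryos. The breed and age of the ovary donors, the sires and the sex of the embryos are not given in the sources used here. The values are TPM, a length-scaled unit. The reads of a gene are divided by its length and then by the sum of these quotients over the library. Levels of different genes can therefore be compared. TPM keeps no read counts, and the sequencing depth of the libraries was not used here, so no counting error is given.

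The libraries differed between the groups far beyond these markers. Between 8854 and 8953 genes were above 0 TPM in control and between 14372 and 14408 in the MT-treated libraries. The Pearson correlation of log2(TPM + 1) across tested genes, which are not independent replicates, was 0.991 to 0.999 within a group and 0.544 to 0.546 between groups. Of the 11953 genes with at least 1 TPM in at least 3 libraries, which were the genes tested, 4037 (33.8%) were listed at 0 in all control libraries and 360 had a listed 0 in each MT-treated library. The former include POLR3A, the catalytic subunit of RNA polymerase III, and ORC2, CDC6 and CDC45, which act in DNA replication, named here after their values were seen. A 0 is therefore reported only as a listed 0, and its part in the results below was not tested. No fold change is given here against a group that is at 0. In pools of whole embryos, fewer hypoblast cells and less RNA per hypoblast cell cannot be told apart.

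Of the 9 markers, 7 were above 0 in the MT-treated libraries, whereas 4 were above 0 in the control libraries. GATA6, PDGFRA, HNF4A, LAMA1, COL4A1 and APOE were higher in MT-treated blastocysts (limma with Benjamini-Hochberg adjustment over all tested genes, adjusted p from 7.68e-10 to 1.13e-06). SOX17 stayed below the level required for testing, and GATA4 and FOXA2 were listed at 0 in every library. In the same fit 61.6% of all tested genes were called higher and 34.1% lower in MT-treated blastocysts, and the numbers of 7367 higher and 4071 lower genes became 5550 and 5311 after quantile normalization and 8412 and 3038 after median centring. GATA6, PDGFRA, HNF4A and LAMA1 passed the filter through the MT-treated libraries alone, so they had to differ, and the count of 6 markers out of 6 tested is a description. Every one of the 4037 tested genes at 0 in all control libraries was called higher, as were 1104 of 1108 others with a control mean below 1 TPM. Likewise all 661 tested genes under 1 TPM in every MT-treated library, 360 of them at 0, were called lower, just as all 5082 under 1 TPM in every control library were called higher. The direction of such genes was fixed by the filter, their p-values are given as a description, and the gene lists below are to be read against these shares. COL4A1 and APOE were above 1 TPM in every library of both groups. For 7 markers, SOX17 included, all 3 MT-treated values lay above all 3 control values, an arrangement seen in 61.9% of tested genes, while 34.2% showed the opposite arrangement.

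**Figure D1:**
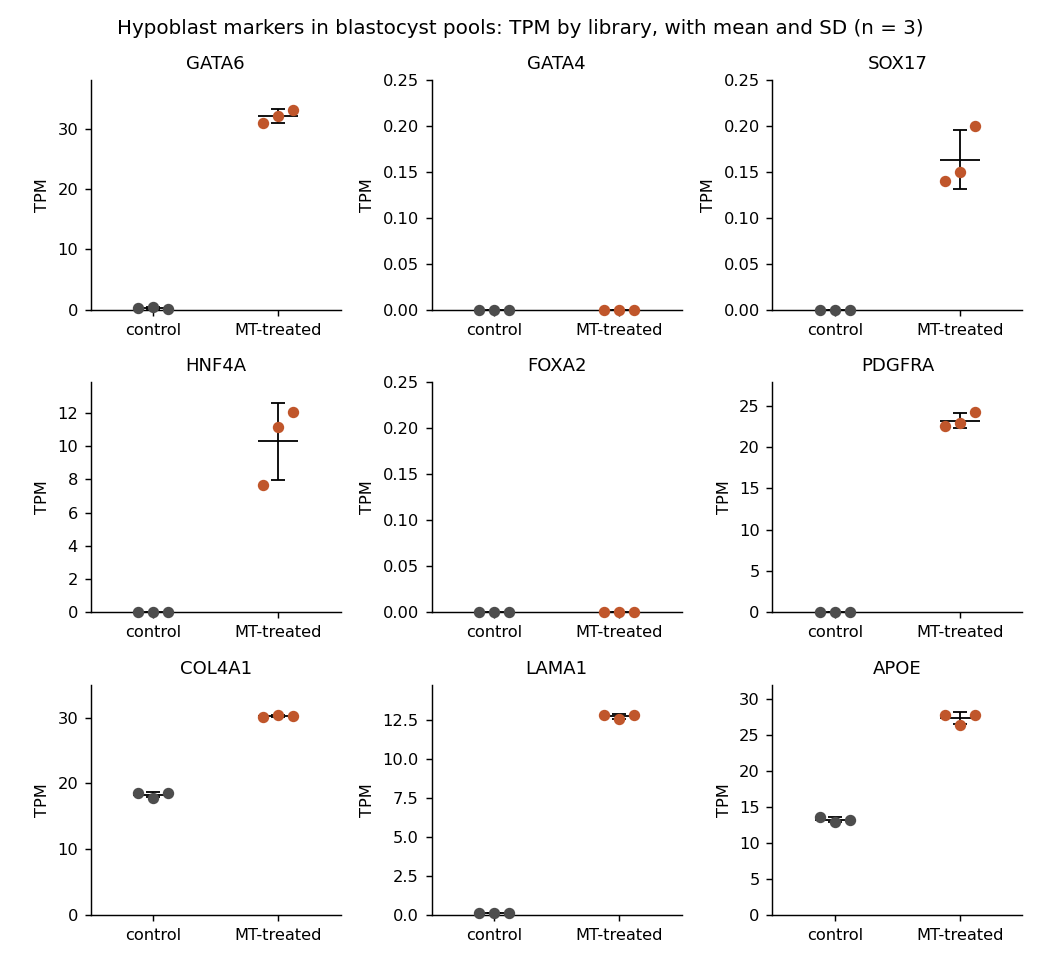
Each panel shows 1 marker, with TPM on a linear axis that starts at 0, 1 point per library, the mean as a horizontal line and the SD as bars (n = 3 per group). GATA6, HNF4A, PDGFRA and LAMA1 are at or near 0 in control and between 7.68 and 33.1 TPM in MT-treated blastocysts, COL4A1 and APOE are present in both groups, SOX17 does not exceed 0.20 TPM, and GATA4 and FOXA2 lie at 0.

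GATA6 (ENSBTAG00000005734), a zinc finger factor that starts the hypoblast programme, had 0.34, 0.44 and 0.20 TPM in control and 30.8, 32.1 and 33.1 TPM after MT treatment. The groups were far apart, and the coefficient of variation among MT-treated libraries was 3.55%. Among genes abundant in every library of both groups, the median coefficient of variation in the MT-treated libraries was 2.56%. The difference in log2(TPM + 1) was 4.64 (standard error 0.07, adjusted p = 8.13e-09 by limma). In the control libraries GATA6 ranked above 15.5 to 19.7% of the genes detected there, and in the MT-treated libraries above 75.8 to 77.4%. GATA6 was the most abundant of the 9 markers in MT-treated blastocysts, with a mean of 32.0 TPM against 30.2 TPM for COL4A1, and the values of these neighbours in the order did not overlap.

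The factors that act after GATA6 gave no common picture. HNF4A (ENSBTAG00000012116), a nuclear receptor of visceral endoderm and liver, was listed at 0 in control throughout but had 7.68, 11.1 and 12.0 TPM after MT treatment (adjusted p = 1.13e-06 by limma). It was the most variable of the tested markers in MT-treated blastocysts, with a coefficient of variation of 22.4%, where the median over the 4422 tested genes with a mean of 5 to 20 TPM in that group was 6.29%. SOX17 (ENSBTAG00000005748), a high mobility group factor needed to maintain endoderm, was listed at 0 in control throughout but had 0.14, 0.15 and 0.20 TPM after MT treatment. These SOX17 values exceeded only 10.9 to 12.6% of the genes detected in the same libraries, and SOX17 was tested only in the alternative without a filter. GATA4 (ENSBTAG00000005425), a paralogue that follows GATA6, and FOXA2 (ENSBTAG00000012407), a forkhead factor of endoderm, were at 0 in all 6 libraries.

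PDGFRA (ENSBTAG00000007173), the receptor that supports survival of primitive endoderm cells, was listed at 0 in control throughout but had 22.5, 22.9 and 24.2 TPM after MT treatment (adjusted p = 8.01e-10 by limma). Its ligand PDGFA followed the same pattern, with 0 in every control library and 11.7, 11.2 and 14.3 TPM after MT treatment (adjusted p = 4.92e-08 by limma). PDGFRA exceeded PDGFA in each of these 3 libraries, whereas no ratio could be formed in control. Of the 7 other genes of this receptor family and its ligands, 5 were tested. PDGFA, PDGFD and the receptor-like gene PDGFRL were called higher, and all of them were at 0 in every control library, where every tested gene was called higher. PDGFC, a further ligand of PDGFRA, was present in both groups and fell from 74.5 ± 2.02 to 20.9 ± 3.92 TPM (mean ± SD, n = 3 each, adjusted p = 1.35e-05 by limma). KIT, a related receptor whose gene lies beside PDGFRA, fell from 72.0 ± 17.1 to 14.2 ± 0.734 TPM (mean ± SD, n = 3 each, adjusted p = 1.43e-05 by limma).

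APOE (ENSBTAG00000010123), a lipoprotein component, had 13.6, 12.9 and 13.2 TPM in control and 27.8, 26.3 and 27.8 TPM after MT treatment. The mean was 2.07 times as high in MT-treated blastocysts, and the groups did not overlap. On the log2(TPM + 1) scale the difference was 0.99 (standard error 0.04, adjusted p = 3.89e-07 by limma). COL4A1 (ENSBTAG00000012849), a chain of type IV collagen, had 18.6, 17.8 and 18.5 TPM in control and 30.1, 30.4 and 30.2 TPM after MT treatment, a mean 1.65 times as high. The difference of COL4A1 was 0.70 in log2(TPM + 1) (standard error 0.03, adjusted p = 5.77e-07 by limma). These 2 markers can be read against the 5988 genes with at least 1 TPM in all libraries, of which 36.4% were called higher and 55.6% lower and whose median difference was -0.27. A difference as large as that of COL4A1 or larger was found in 20.7% of those genes, and one as large as that of APOE or larger in 15.8%. When each library was centred on the median of those genes, which removed a shift of -0.48 between the groups, the differences became 1.17 for COL4A1 and 1.47 for APOE.

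**Figure D2:**
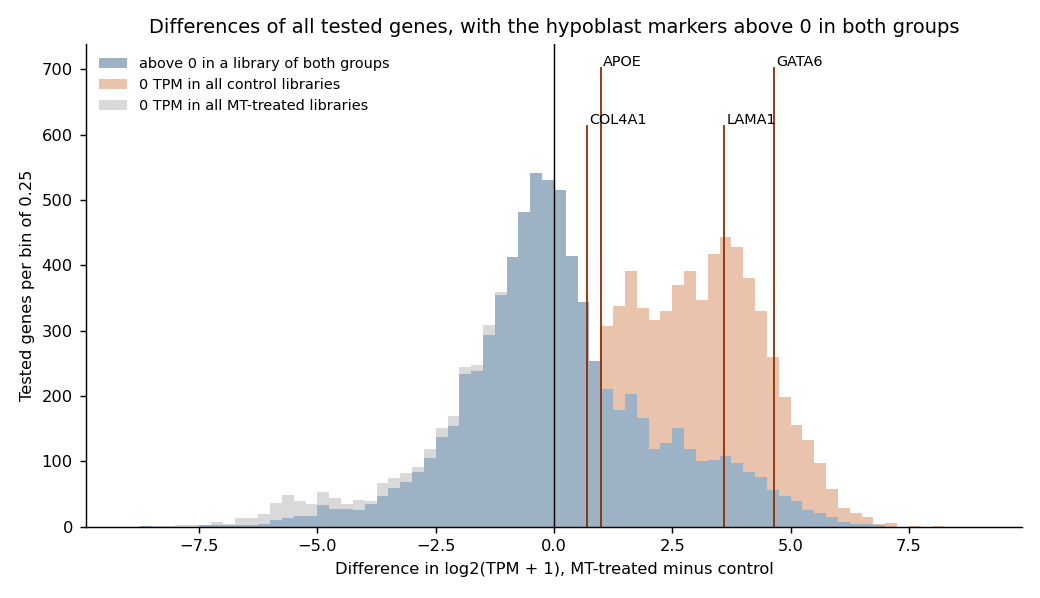
The histogram shows the difference in log2(TPM + 1), MT-treated minus control, for the 11953 tested genes in bins of 0.25, coloured by whether a gene was above 0 in both groups, at 0 in all control libraries or at 0 in all MT-treated libraries. Lines mark COL4A1 (0.70), APOE (0.99), LAMA1 (3.60) and GATA6 (4.64), and the hump at the right consists largely of genes at 0 in control, to which HNF4A and PDGFRA belong.

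LAMA1 (ENSBTAG00000018160), the alpha chain of the early embryonic laminin, had 0.14, 0.13 and 0.13 TPM in control and 12.8, 12.6 and 12.8 TPM after MT treatment. The groups lay far apart with little spread inside each. The difference in log2(TPM + 1) was 3.60 (standard error 0.03, adjusted p = 7.68e-10 by limma), and it was 0.77 after quantile normalization and 5.78 with a pseudocount of 0.1. LAMA1 forms a trimer with LAMB1 and LAMC1, and these 3 chains changed differently. LAMB1 rose from 41.1 ± 0.656 to 57.9 ± 2.37 TPM (mean ± SD, n = 3 each, adjusted p = 1.67e-05 by limma). LAMC1, the gamma chain shared by most laminins, had 636, 624 and 642 TPM in control and 5.91, 5.78 and 6.33 TPM after MT treatment (adjusted p = 5.70e-10 by limma). LAMC1 was therefore the most abundant of the 3 chains in control and the least abundant in MT-treated blastocysts.

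Ratios of 2 genes inside a library do not depend on how that library was scaled. The ratio of LAMA1 to LAMC1 was 0.000202 to 0.000220 in control and 2.03 to 2.17 in MT-treated blastocysts. The ratio of LAMB1 to LAMC1 was 0.0635 to 0.0657 in control and 9.37 to 10.1 in MT-treated blastocysts, and that of LAMA1 to LAMB1 was 0.00319 to 0.00335 in control and 0.213 to 0.231 in MT-treated blastocysts. The ratio of GATA6 to POU5F1 was 0.00105 to 0.00234 in control and 0.160 to 0.171 in MT-treated blastocysts. For these 4 ratios the groups did not overlap (exact permutation test, two-sided, p = 0.1 each, adjusted p = 0.125 over 5 ratios), and with 3 libraries a group no p below 0.1 can be reached. The 3 ratios with LAMA1 or GATA6 restate that these genes were under 1 TPM in every control library, so LAMB1 to LAMC1 is the only one of the 4 between genes above 1 TPM in all libraries. The fifth ratio, COL4A1 to COL4A2, was 8.55, 9.64 and 8.71 in control and 14.4, 7.81 and 15.0 in MT-treated blastocysts and overlapped between the groups (exact permutation test, two-sided, p = 0.4, adjusted p = 0.4 over 5 ratios). COL4A1 and COL4A2 share a trimer and lie side by side in the genome, where they are transcribed in opposite directions from a common promoter region. COL4A2 itself had 2.17, 1.85 and 2.12 TPM in control and 2.09, 3.90 and 2.01 TPM in MT-treated blastocysts and was not called (adjusted p = 0.291 by limma), although after quantile normalization its difference was -1.78 and after median centring 0.71 on the log2 scale, both called. COL4A1 was more abundant than COL4A2 in each of the 6 libraries.

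**Figure D3:**
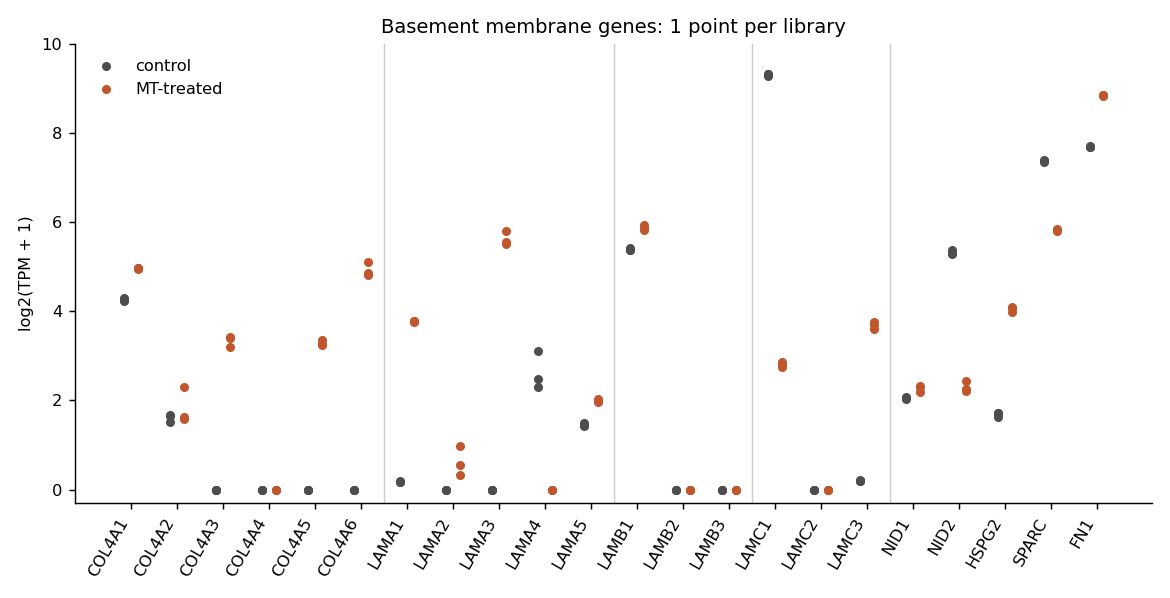
The plot shows log2(TPM + 1) of 22 basement membrane genes with 1 point per library, grouped into type IV collagen chains, laminin alpha, beta and gamma chains, and other components. LAMC1 falls from above 9 to below 3 while LAMA1, LAMA3, COL4A3, COL4A5 and COL4A6 rise from near 0, and COL4A1 rises within a higher range.

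Among 24 basement membrane genes besides COL4A1 and LAMA1, 18 were tested. Of these, 13 (72.2%) were called higher and 4 (22.2%) lower after MT treatment, and 6 of the 13 were at 0 in all control libraries. Over all tested genes the shares were 61.6% and 34.1%. Of the 9 basement membrane genes with at least 1 TPM in all libraries, 5 were higher and 3 lower. Over all genes of that kind, 36.4% were higher and 55.6% lower. The median difference of these 9 was 0.23 in log2(TPM + 1), against -0.27 over all genes of that kind. Under quantile normalization the 18 genes split into 9 higher and 9 lower. In the type IV collagen family, COL4A6 (28.2, 33.7 and 27.0 TPM), COL4A3 (9.64, 8.14 and 9.71 TPM) and COL4A5 (9.18, 8.44 and 8.65 TPM) were detected in the MT-treated libraries and listed at 0 in every control library, and COL4A4 was at 0 in all 6 libraries. Among the laminin alpha chains, LAMA3 had 44.8, 45.8 and 55.1 TPM after MT treatment and 0 in control. LAMA4 had 3.95, 4.58 and 7.68 TPM in control and 0 in every MT-treated library, so its lower call was fixed by the filter in the same way. LAMA5 rose from 1.74 ± 0.0529 to 2.99 ± 0.0819 TPM (mean ± SD, n = 3 each, adjusted p = 7.14e-06 by limma) but its difference was -1.61 after quantile normalization, and LAMA2 did not exceed 0.97 TPM. LAMC3, a gamma chain, rose from 0.15 ± 0.01 to 11.8 ± 0.675 TPM (mean ± SD, n = 3 each, adjusted p = 3.98e-09 by limma), and NID2, which links laminin to collagen, fell from 39.1 ± 1.53 to 3.95 ± 0.432 TPM (mean ± SD, n = 3 each, adjusted p = 4.45e-08 by limma). FN1 and SPARC, secreted matrix proteins chosen after their values were seen, also moved apart. FN1 rose from 206 ± 1.49 to 461 ± 3.21 TPM (mean ± SD, n = 3 each, adjusted p = 2.07e-09 by limma), and SPARC fell from 165 ± 3.44 to 55.5 ± 0.549 TPM (mean ± SD, n = 3 each, adjusted p = 5.22e-09 by limma).

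The enzymes and carriers that fold and export these matrix chains were split. Of 13 tested genes, 6 were higher and 7 lower, against 4 and 8 under quantile normalization and 7 and 6 under median centring. Over all tested genes, 61.6% were higher and 34.1% lower. COLGALT1, a collagen galactosyltransferase, rose from 0.16 ± 0.0656 to 18.0 ± 0.149 TPM (mean ± SD, n = 3 each), and PLOD2, a lysyl hydroxylase, was at 0 in control and had 7.51, 8.19 and 7.30 TPM after MT treatment. SERPINH1, the collagen chaperone, fell from 15.1 ± 0.551 to 5.11 ± 0.131 TPM (mean ± SD, n = 3 each), and CRTAP, which acts in collagen prolyl hydroxylation, fell from 29.1 ± 0.730 to 5.12 ± 0.496 TPM (mean ± SD, n = 3 each). The COPII coat genes SEC24D and SEC23A went in opposite directions. SEC24D had 33.5, 33.7 and 33.4 TPM in control and 0, 0.01 and 0 TPM after MT treatment, and SEC23A had 0, 0 and 0.06 TPM in control and 3.01, 2.64 and 3.16 TPM after MT treatment, although after quantile normalization SEC23A was not called. Of 12 tested receptors and adaptors for basement membrane, 5 were higher and 4 lower, a split of 4 to 5 under quantile normalization and of 7 to 2 under median centring. DDR1, a collagen receptor, was at 0 in control and had 11.6, 11.9 and 10.6 TPM after MT treatment, and ITGA3, a laminin-binding integrin, rose to 4.96 ± 0.271 TPM (SD, n = 3), though not after quantile normalization. PXN, a focal adhesion adaptor, was at 0 in control and had 9.83, 16.6 and 19.6 TPM. ITGB5 fell from 42.8 ± 3.44 to 8.82 ± 0.528 TPM, and ILK, the integrin-linked kinase, fell from 119 ± 2.99 to 51.6 ± 1.49 TPM (mean ± SD, n = 3 each). ITGA5, the fibronectin receptor chain, fell from 124 ± 0.993 to 87.1 ± 5.41 TPM (mean ± SD, n = 3 each), a change that was lost on median centring.

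Yolk sac endoderm also secretes lipoproteins and takes up protein and lipid through endocytic receptors. Besides APOE, 15 genes for lipoprotein and carrier proteins were listed and 4 were tested, of which 3 were higher, 2 of them at 0 in all control libraries, and 1 lower (2 and 2 under quantile normalization, 4 and 0 under median centring). APOB was at 0 in control throughout but had 33.8, 38.7 and 26.5 TPM after MT treatment, and APOM was at 0 in control and had 11.3, 10.3 and 10.1 TPM. APOA4 rose from 8.35 ± 0.552 to 12.5 ± 0.745 TPM (mean ± SD, n = 3 each, adjusted p = 0.000189 by limma) but was lower after quantile normalization. APOA1, the most abundant, fell from 453 ± 2.25 to 398 ± 2.64 TPM (mean ± SD, n = 3 each, adjusted p = 6.94e-06 by limma) and was higher after median centring. APOA1 thus exceeded APOE in every library. Of 10 tested endocytic receptors and adaptors, 8 were higher and 1 lower, against 4 and 5 under quantile normalization and 10 and 0 under median centring. Of the 8, 4 were at 0 in all control libraries, and over all tested genes 61.6% were higher and 34.1% lower. SCARB1, the receptor for high density lipoprotein, was at 0 in control and had 16.6, 16.3 and 15.4 TPM after MT treatment. LRP8 and VLDLR, receptors that bind APOE, were at 0 in control and had 3.88, 3.80 and 4.03 TPM and 2.24, 2.30 and 2.59 TPM after MT treatment. LRP8 was not called and VLDLR was lower after quantile normalization.

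Of 16 other endoderm transcription factors, 5 were tested, and 3 were higher and 2 lower, near the 61.6% and 34.1% of all tested genes. OTX2, a homeobox factor of anterior visceral endoderm, was at 0 in control throughout but had 34.6, 33.3 and 35.6 TPM after MT treatment. FOXA3, a paralogue of FOXA2, was at 0 in control and had 4.04, 4.40 and 4.33 TPM. KLF5 rose only from 43.9 ± 0.887 to 48.6 ± 0.752 TPM (mean ± SD, n = 3 each, adjusted p = 0.00176 by limma). HHEX fell from 3.08 ± 0.529 to 1.37 ± 0.217 TPM (mean ± SD, n = 3 each, adjusted p = 0.000586 by limma). GATA5 had 44.2, 46.8 and 37.2 TPM in control and 0 in every MT-treated library, and since it passed the filter through control alone it had to be called lower. In the GATA family only GATA2 and GATA3 were above 1 TPM in every library of both groups, and GATA4 was at 0. GATA1, a blood factor, was at 0 in control and had 37.1, 38.5 and 25.8 TPM after MT treatment. GATA2 and GATA3, both trophectoderm factors, rose from 7.07 ± 0.506 to 49.1 ± 1.29 TPM and from 19.5 ± 0.9998 to 36.7 ± 0.465 TPM (mean ± SD, n = 3 each, adjusted p = 2.13e-08 and 1.64e-06 by limma).

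FGF signalling through ERK directs inner cell mass cells towards GATA6, and 27 genes of this route were listed. Of 20 tested, 11 were higher and 8 lower, a split of 8 to 11 under quantile normalization and of 13 to 3 under median centring. These shares of 55% higher and 40% lower lie near the 61.6% and 34.1% of all tested genes. Genes at 0 in every control library made up 8 of the 20. FGF2 was one of these, with 24.7, 26.6 and 22.9 TPM after MT treatment, as was the kinase BRAF, with 44.9, 39.6 and 43.2 TPM. ETV5, a transcription factor induced by ERK, was at 0 in control and spread widely in MT-treated libraries, with 12.6, 24.0 and 37.0 TPM. DUSP6, a phosphatase of ERK that ERK itself induces, had 44.9 ± 1.76 TPM in control and 0.760 ± 0.176 TPM after MT treatment (mean ± SD, n = 3 each), and its lower call was fixed by the filter. NRAS, a small GTPase of this route, fell from 37.3 ± 0.732 to 20.9 ± 0.647 TPM (mean ± SD, n = 3 each, adjusted p = 7.48e-07 by limma). Of 13 secreted signals and antagonists of endoderm, 4 were tested and all 4 were higher, or 3 higher and 1 lower under quantile normalization. Of these, 3 were at 0 in all control libraries and none reached 1 TPM in every library, so nothing about this list can be read from the count. DKK1, a WNT antagonist, and NODAL were at 0 in control and had 10.9, 10.3 and 11.1 TPM and 9.64, 8.35 and 9.56 TPM after MT treatment. BMP6 had a mean of 0.490 ± 0.707 TPM in control, with 1 library at 0, and 19.7, 22.3 and 20.4 TPM after MT treatment.

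**Figure D4:**
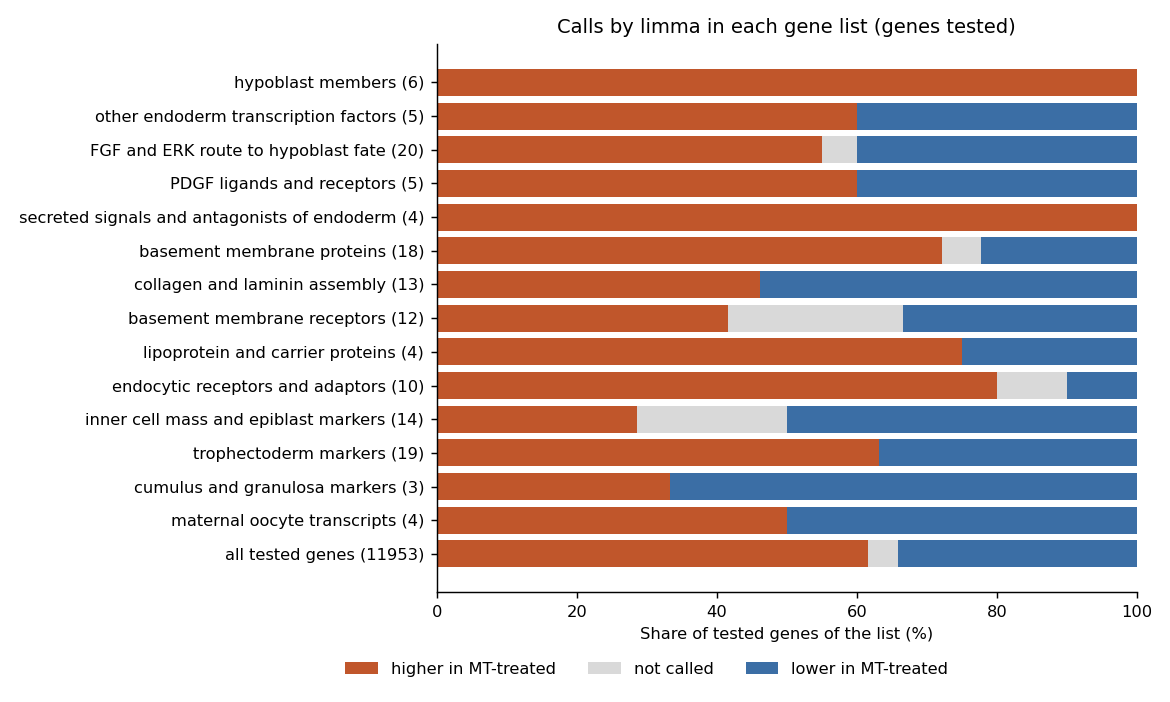
Horizontal bars give, for the markers, each of 13 further gene lists and all tested genes, the percentage of tested genes called higher, not called or called lower in MT-treated blastocysts (number tested in parentheses). All 6 tested hypoblast markers and all 4 secreted signals are higher, beside 61.6% higher among all tested genes. Collagen and laminin assembly, inner cell mass, and cumulus and granulosa genes hold more lower than higher calls, a majority that turns under median centring for each.

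Markers of the other blastocyst lineages were measured alongside. The summed TPM of the 9 hypoblast markers was 31.3 to 32.6 in control and 132 to 140.35 in MT-treated libraries. This sum includes GATA6, PDGFRA, HNF4A and LAMA1, which passed the filter through the MT-treated libraries alone. Its rise is therefore a description. The summed TPM of 16 inner cell mass and epiblast genes was 922 to 935 in control and 680.5 to 684 in MT-treated libraries. That of 19 trophectoderm genes was 15534 to 15880 and 13543 to 13907, most of it KRT8 and KRT18. Of 14 tested inner cell mass genes, 4 were higher and 7 lower, against 8 and 5 under median centring. Over all tested genes, 61.6% were higher and 34.1% lower. NANOG, the factor opposed to GATA6, was at 0 in control throughout but had 8.93, 8.23 and 8.88 TPM after MT treatment, so it differed in the same direction as GATA6. SOX2 had 0, 0.02 and 0 TPM in control and 5.88, 6.80 and 6.95 TPM after MT treatment, and it was not called after quantile normalization. LIN28A was at 0 in control and had 14.9, 15.2 and 15.1 TPM. POU5F1 had 190 ± 1.49 TPM in control and 193 ± 1.83 TPM in MT-treated blastocysts and did not pass the test (mean ± SD, n = 3 each, adjusted p = 0.223 by limma), whereas it was called higher by 0.24 after quantile normalization and by 0.50 after median centring. GDF3, KLF17 and SPIC fell, from 68.8 ± 2.15 to 8.58 ± 0.320 TPM, from 44.6 ± 1.76 to 5.53 ± 0.327 TPM and from 174 ± 1.10 to 76.0 ± 1.03 TPM (mean ± SD, n = 3 each).

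All 19 trophectoderm genes were tested, and 12 were higher and 7 lower, against 13 and 3 under median centring, near the share of 61.6% higher among all tested genes. CDX2 was at 0 in control throughout but had 17.2, 15.0 and 16.1 TPM after MT treatment, and DLX4 and ELF5 had the same arrangement with means of 13.2 and 12.7 TPM. TFAP2A had 36.1 ± 3.99 TPM in control and 0.490 ± 0.0520 TPM after MT treatment (mean ± SD, n = 3 each), and TKDP1 had 16.8 ± 0.391 TPM and a listed 0, so the filter fixed both lower calls. ATP1B3 fell from 2870 ± 19.1 to 1862 ± 13.2 TPM (mean ± SD, n = 3 each). Of the tested genes, 10 of 14 for the inner cell mass and 14 of 19 for the trophectoderm had at least 1 TPM in all 6 libraries, POU5F1, GATA3, KRT8 and KRT18 among them. NANOG, SOX2 and CDX2 were at or near 0 in the control libraries, as were GATA6, PDGFRA and HNF4A. The part of this shared pattern in the result for the hypoblast markers was not tested.

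Markers of cumulus cells, which according to the methods were removed from the zygotes by pipetting before culture, and of oocyte RNA were also measured. Of 14 cumulus and granulosa genes, 8 were at 0 in all 6 libraries, among them FOXL2, HAS2, PTX3 and TNFAIP6, and their sum was 230 to 236 TPM in control and 202 to 206 TPM after MT treatment. CYP11A1 (78.7 and 82.4 TPM), HSD3B1 (136 and 105.5 TPM) and FSHR (17.21 to 19.21 and 15.03 to 17.08 TPM) made up nearly all of that sum, given for control and MT-treated blastocysts as means, or as the range for FSHR. All 3 passed the test, CYP11A1 as higher and the others as lower, while under median centring all 3 were higher, and FSHR and CYP11A1 lost their calls when single libraries were left out. FSHR also lost its call with the replicate number as a block (adjusted p = 0.0600 by limma), and CYP11A1 without the intensity trend (adjusted p = 0.0520 by limma). Of 17 oocyte genes, 9 were at 0 in all 6 libraries, among them GDF9, ZP2, ZP3 and ZP4, and their sum was 240 to 247 TPM in control and 148 to 152 TPM after MT treatment. DPPA3, which is also in the inner cell mass list, fell from 196 ± 1.90 to 108 ± 2.28 TPM and OOEP fell from 47.7 ± 1.92 to 21.3 ± 1.08 TPM (mean ± SD, n = 3 each). Of 4 tested oocyte genes 2 were higher and 2 lower, against 1 and 2 under quantile normalization. Over all tested genes, 61.6% were higher and 34.1% lower. BTG4 was at 0 in control and had 15.2, 15.0 and 15.5 TPM after MT treatment, and TCL1A had 0 in control and 4.37, 2.91 and 4.02 TPM, but TCL1A was not called after quantile normalization. The oocyte sum was mostly DPPA3 and OOEP, and it hides genes that differed in the other direction. Of the 17 oocyte genes, 6 were at 0 in all control libraries and detected after MT treatment, as were 2 of the 14 cumulus and granulosa genes. The part of either list in the result for the hypoblast markers was not tested.

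The calls of the markers were recomputed under other settings, which bears on COL4A1 and APOE only, since the direction of the other 4 was fixed by the filter they passed. COL4A1 and APOE were called higher under each of 15 alternatives, with adjusted p-values by limma of at most 4.07e-05 and 1.23e-05. GATA6, LAMA1, HNF4A and PDGFRA were also called higher wherever they were retained, which adds no support, and the highest adjusted p-value was 0.00832 for HNF4A after quantile normalization.

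**Figure D5:**
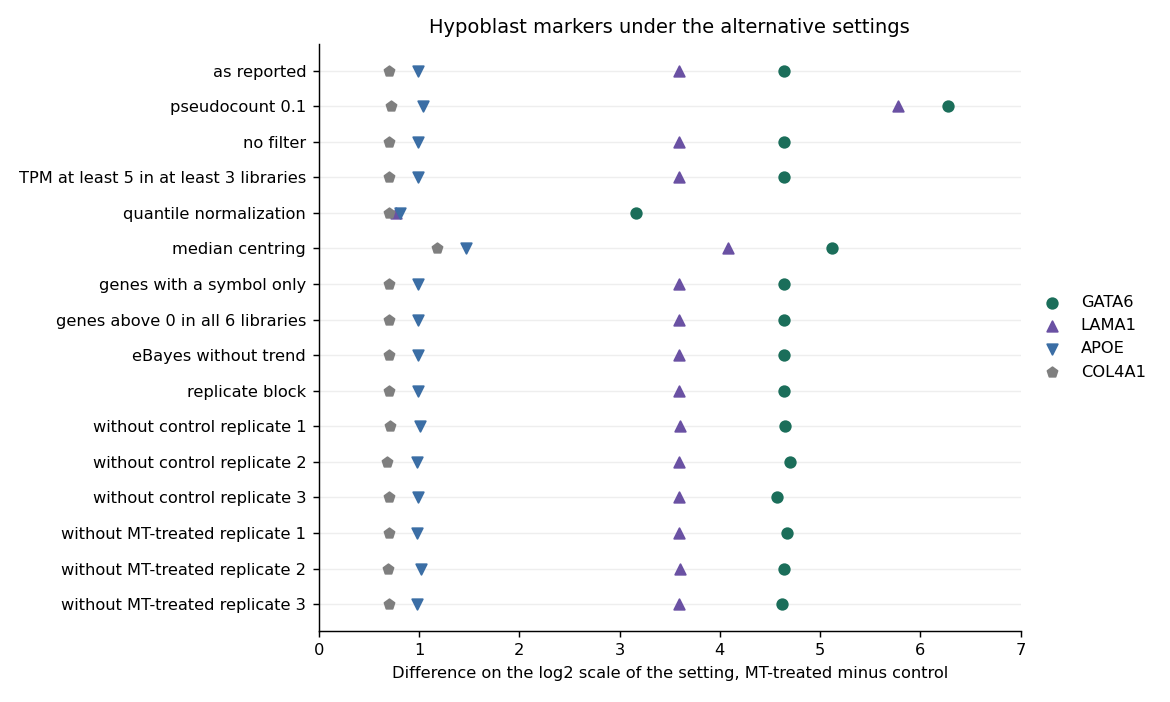
Each row is 1 setting and each symbol 1 of the 4 markers above 0 in both groups, placed at its difference on the log2 scale used by that setting, MT-treated minus control (HNF4A and PDGFRA, at 0 in control, are left out). COL4A1 stays between 0.68 and 1.17 and APOE between 0.81 and 1.47, whereas GATA6 ranges from 3.16 to 6.27 and LAMA1 from 0.77 to 5.78, with the lowest values after quantile normalization and the highest with a pseudocount of 0.1.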

How the data were processed

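The deposited table holds TPM values with 2 decimals for every gene in 3 control and 3 MT-treated blastocyst pools. Per the paper, fastp and FastQC served for quality control, and clean reads were aligned with STAR and counted with featureCounts. How TPM followed from the counts is not given in the sources used here. The paper names ARS-UCD1.3 and the Smart-seq2 protocol, whereas the submitters' processing notes name ARS-UCD 1.2 and the labels a TruSeq kit, so build and library chemistry are uncertain and no coordinates are printed. The listed TPM sum to 936783 to 937698 in the control libraries and to 912686 to 913707 in the MT-treated libraries, so the totals differ between the groups. Groups and replicate numbers came from the labels, and the MT concentration, maturation time and pooling from the paper.

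Genes with at least 1 TPM in at least 3 libraries were fitted on log2(TPM + 1) in limma 3.58.1 (R 4.3.3) by lmFit and trended eBayes. Calls were made at a Benjamini-Hochberg adjusted p under 0.05. Fold changes on this scale understate those of low genes. For ratios within libraries an exact permutation test, two-sided, was run (scipy 1.17.1). The fit was also run on simulated data in which few genes differed between the groups. Most tested genes differ here, so that run does not bear on the calls. The alternatives comprised unfiltered genes, a pseudocount of 0.1, a minimum of 5 TPM, quantile normalization, median centring, genes with a symbol only, genes above 0 in all 6 libraries, no trend, a replicate block and each library left out in turn. The markers, gene lists and settings were chosen with earlier results of these data known. Genes named from each list were up to 3 called rises and 3 called falls of largest size with groups that do not overlap, together with the GATA, COL4A and LAMA families, the ratio genes and defining lineage markers. FN1, SPARC, POLR3A, ORC2, CDC45 and the genome neighbours fall outside that rule and were named after their values were seen. According to the paper the 3 libraries of a group came from 3 production runs, which the groups can share. Results of some genes that the rule would name are not reported here, although the list counts include them. Sequences were not used here.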

Additional observations from a re-analysis of the deposited data

How the results depend on the processing

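COL4A1 and APOE kept their direction and their side of the threshold under all 15 alternatives. GATA6 and LAMA1 did so too, as did HNF4A and PDGFRA under the 14 that retained them, but these 4 were tested only through the libraries in which they are high, so this says nothing about their stability. The count of markers called higher was 6 under each alternative except 7 without a filter, which added SOX17 (listed at 0 in every control library, in a fit with 8871 higher and 4372 lower genes), and 4 among genes above 0 in all 6 libraries, which leaves out HNF4A and PDGFRA by construction. Over the 13 other lists, 75 genes were higher and 46 lower. These counts were 31 higher and 42 lower when genes at 0 in any library were left out, 91 higher and 28 lower after median centring, and 57 higher and 64 lower after quantile normalization, which turned the majority, and with single libraries left out they were 71 to 74 higher and 45 to 47 lower. Across all tested genes, quantile normalization gave 5550 higher and 5311 lower genes in place of 7367 and 4071, and median centring gave 8412 and 3038. Of the other named genes, 9 values turned direction. After median centring these were APOA1 (0.29), FSHR (0.31) and HSD3B1 (0.12), and after quantile normalization APOA4 (-1.11), COL4A2 (-1.78), ITGA3 (-0.047), LAMA5 (-1.61), SEC23A (-0.35) and VLDLR (-0.24), all as differences on the log2 scale, and the cause was not tested. For VLDLR, listed at 0 in control, this is a difference of normalized values and no fold change. With 0.1 TPM added to both genes, the change in the log2 ratio was 5.29 in place of 6.08 for LAMA1 to LAMB1 and 12.5 in place of 13.3 for LAMA1 to LAMC1. The change in COL4A1 to COL4A2 was 0.41 and lay between 0.24 and 0.72 with single libraries left out, the highest without MT-treated replicate 2.

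Replicate numbers are not stated to mark the same production run in both groups, and same-numbered libraries did not deviate together (correlations across genes of -0.0115, -0.000679 and 0.0588). With the replicate number as a block, 6 markers remained called higher, and 75 list genes were higher and 45 lower. Without read counts, the counting error of low values such as those of SOX17, and of GATA6 and LAMA1 in control, is unknown.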

Other observations

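The genes whose 6 values of log2(TPM + 1) lay nearest to those of each tested marker were found by Euclidean distance over the 6 libraries. For GATA6 these were ST6GALNAC2 (distance 0.39) and KCNAB1 (0.40), for PDGFRA KCTD1 (0.03) and CDC6 (0.04), and for HNF4A ZNF34 (0.10) and KCNK5 (0.22). For COL4A1 they were HTATIP2 (0.09) and H3-5 (0.17), for LAMA1 BMPR1A (0.13) and SLC16A11 (0.18), and for APOE CISD2 (0.11) and ECSIT (0.12). The number of genes with a symbol within a distance of 0.5 was 4 for GATA6, 37 for APOE, 51 for COL4A1, 216 for HNF4A, 407 for PDGFRA and 470 for LAMA1.

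The protein-coding genes next to each marker were taken from the order of RefSeq genes on ARS-UCD2.0, in which all 9 markers were matched by symbol, and all 18 neighbours were in the table. This comparison was chosen after the data were seen and is given as values. Of the 18 neighbours, 7 were at 0 in all 6 libraries, both beside markers at 0 (NEIL2 and BLK at GATA4, PAX1 at FOXA2) and beside markers that were detected (RP1 at SOX17, TTPAL at HNF4A, GSX2 at PDGFRA, APOC4 at APOE). THBD, on the other side of FOXA2, was at 0 in control and had 27.7, 10.01 and 3.37 TPM after MT treatment. RBBP8, beside GATA6, was at 0 in control and had 15.1, 15.7 and 15.0 TPM, and IRS2, beside COL4A1, was at 0 in control and had 16.53, 18.8 and 15.5 TPM. ARHGAP28, beside LAMA1, had 130, 136 and 126 TPM in control and 7.04, 9.62 and 7.15 TPM after MT treatment, the opposite of LAMA1. TOMM40, beside APOE, had 38.4, 38.6 and 39.3 TPM in control and 28.4, 29.1 and 29.7 TPM after MT treatment.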
